A study of Mus musculus with 20 samples.

Results

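The 39 genes described here encode proteins that condense, attach, and separate chromosomes in mitosis. They were the rows of the deposited count table whose gene name was on a fixed list of mitosis and chromosome segregation genes, and each of the 39 names was found in 1 of the 55401 rows. RNA-seq had been run on 5 organs (spleen, heart, kidney, liver, and small intestine) of wild-type (WT) and Nsun6 knockout (KO) mice, with 2 libraries for each of the 10 combinations of organ and genotype and 20 libraries in all. Nsun6 encodes an RNA methyltransferase that places 5-methylcytosine on transcripts, and the KO mice carried a CRISPR/Cas9 deletion of its exons 3 and 4 in every cell, made in fertilized C57BL/6J eggs. The study's methods give female mice aged 8 weeks without further treatment, and they do not say whether the organs of 1 number came from the same animal. The study calls the libraries of a group biological replicates, and the labels do not name the animals behind them. Libraries are called WT 1, WT 2, KO 1, and KO 2 within an organ.

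Total counts ranged from 15897446 to 44508197 per library. The summed counts of the 39 genes ranged from 4700 in liver WT 2 to 144408 in spleen KO 1. Levels of genes and of organs are given as TPM (counts divided by exon length, scaled to the same sum in each library), and the main counts and overlaps between organs are given in CPM too, since the order of organs can differ between the scales. CPM is the count relative to the library total adjusted by TMM factors computed over the 20 libraries. Libraries of 1 organ are compared as CPM, and all fold changes with an SE come from fits to the counts. A gene was called when its Benjamini-Hochberg adjusted p in edgeR's quasi-likelihood test was under 0.1 and its fold change over 2. The counts of Nsun6 take in all its exons and so hardly test the deletion. Its CPM in WT 1, WT 2, KO 1, and KO 2 was 6.10, 4.39, 4.04, and 6.62 in the spleen. Over the 20 libraries it lay between 3.33 and 9.67.

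Markers of each organ were found where the labels place them. The summed CPM of 10 hepatocyte genes, led by Alb, was at least 195077 in the liver, that of 8 kidney tubule genes, led by Kap, at least 28063 in the kidney, and that of 8 cardiomyocyte genes, led by Myl2, at least 60229 in the heart. The 8 B cell genes, led by Cd79b, reached at least 2569 in the spleen, and the 8 enterocyte genes, led by Apob, at least 15580 in the small intestine. The enterocyte list also reached 7098 to 10795 in the liver, where Apob, which hepatocytes make too, gave 6885 to 10433 of it. Sis, the sucrase-isomaltase of enterocytes, had a CPM of at least 2141 in the small intestine and at most 0.19 in the liver. A spleen library stood apart, since the hepatocyte genes summed to 10.8 in WT 1, 3544 in WT 2, 131 in KO 1, and 183 in KO 2. Spleen KO 1 stood apart in the kidney tubule genes, which summed to 2.65, 2.34, 51.3, and 2.25 in the same order. The 2 small intestine libraries numbered 1 also stood apart from the 2 numbered 2 in genes of gut position. Fabp6, the ileal bile acid-binding protein, had a CPM of 6680 in WT 1 and 6251 in KO 1 but 0.234 in WT 2 and 0.407 in KO 2. Pdx1, a transcription factor of the duodenum, was at 0 in both libraries numbered 1 and at 91.8 and 64.3 in WT 2 and KO 2.

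Mitosis genes are transcribed mainly in the later part of the cell cycle, so in a whole organ their RNA comes largely from the cells that are dividing. In the adult mouse, such cells are found mostly among the blood-forming and lymphoid cells of the spleen and in the crypts of the intestine, while liver, kidney, and heart cells seldom divide. In bulk RNA, fewer cells of a type and less RNA per cell cannot be told apart. Transcription of these genes is known to be held down outside the cycle by the DREAM complex, which binds an element called CHR near their start sites, and to be driven in dividing cells by factors that include NF-Y, which binds CCAAT, and FOXM1.

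The sequence before the start site is shown for Mki67 and Cenpf, the members called in the spleen, for Kif23 and Spc25, called between small intestine libraries and set apart by their kidney level, and for Ccnb2, the most abundant member of its role. Each window holds the 250 bases before the RefSeq start, 5′ to 3′ on the strand of the gene, read from GRCm38.p6, and touches no exon of the count table. Capitals mark CCAAT or its reverse complement ATTGG, and TTTGAA, the core of a CHR, or its reverse complement TTCAAA. Coordinates are chr7:135716380-135716629 for Mki67, chr1:189688087-189688336 for Cenpf, chr9:70421555-70421804 for Ccnb2, chr2:69206214-69206463 for Spc25, and chr9:61946800-61947049 for Kif23, all on the minus strand.
Mki67: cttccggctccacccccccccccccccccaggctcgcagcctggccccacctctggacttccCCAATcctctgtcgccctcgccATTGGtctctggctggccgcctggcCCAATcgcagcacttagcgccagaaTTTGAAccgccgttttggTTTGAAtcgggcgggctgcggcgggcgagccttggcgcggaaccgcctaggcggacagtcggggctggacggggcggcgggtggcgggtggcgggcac
Cenpf: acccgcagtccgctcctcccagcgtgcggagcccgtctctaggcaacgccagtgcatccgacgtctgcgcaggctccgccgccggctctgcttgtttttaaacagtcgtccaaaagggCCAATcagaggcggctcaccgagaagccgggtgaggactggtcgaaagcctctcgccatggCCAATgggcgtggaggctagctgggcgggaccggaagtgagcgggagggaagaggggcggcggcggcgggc
Ccnb2: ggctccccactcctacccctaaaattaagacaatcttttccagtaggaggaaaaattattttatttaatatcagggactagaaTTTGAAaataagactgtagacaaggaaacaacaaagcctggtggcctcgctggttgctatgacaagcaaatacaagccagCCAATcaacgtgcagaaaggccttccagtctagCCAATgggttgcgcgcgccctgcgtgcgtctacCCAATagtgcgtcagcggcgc
Spc25: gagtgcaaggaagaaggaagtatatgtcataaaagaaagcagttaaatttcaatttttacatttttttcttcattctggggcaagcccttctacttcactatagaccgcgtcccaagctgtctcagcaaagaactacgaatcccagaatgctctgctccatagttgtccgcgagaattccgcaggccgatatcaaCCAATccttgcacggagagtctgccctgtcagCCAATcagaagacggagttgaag
Kif23: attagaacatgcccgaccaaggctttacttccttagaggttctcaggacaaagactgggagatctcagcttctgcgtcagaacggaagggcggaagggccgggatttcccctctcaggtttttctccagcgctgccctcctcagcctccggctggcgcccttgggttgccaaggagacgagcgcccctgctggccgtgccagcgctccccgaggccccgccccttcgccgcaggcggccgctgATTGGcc
Mki67 had 3 CCAAT and 2 TTTGAA matches, Ccnb2 3 and 1, Cenpf and Spc25 2 CCAAT and no TTTGAA, and Kif23 1 CCAAT and no TTTGAA. A window was found for 32 of the 39 members. CCAAT was present in 24 of the 32 windows (75.0%), compared with 33.8% of all 32851 RefSeq promoter windows of the same length. TTTGAA was present in 11 (34.4%) compared with 16%, both motifs in 10 (31.2%) compared with 5.55%, and 2 or more CCAAT in 15 (46.9%) compared with 10.1%. No match of one motif overlapped a match of the other. The windows of Birc5, Knl1, Mad2l1, Ncaph, Ndc80, Nuf2, and Pttg1 held neither motif, which says only that these letters are not in the 250 bases.

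By the median member, the spleen was highest among the 5 organs, the small intestine came next, and the liver, kidney, and heart were below both. By the sum of the 39 members, the small intestine did not stand above kidney and heart. The summed TPM was 674, 171, 306, and 205 in small intestine WT 1, WT 2, KO 1, and KO 2. It was 258 to 307 in the kidney, 272 to 303 in the heart, and 1100 to 2142 in the spleen. Single genes weighed much in these sums, since mean TPM was 102 for Spc25 and 101 for Pttg1 in the kidney and 184 for Pttg1 in the heart. The median TPM of the 39 members, averaged over the 4 libraries of an organ, was 23.2 ± 6.36 (SD, n = 4) in the spleen, 6.11 ± 4.89 in the small intestine, 1.32 ± 0.206 in the kidney, 1.25 ± 0.392 in the heart, and 0.693 ± 0.200 in the liver. The library medians of the spleen (15.4 to 29.3) did not overlap those of the small intestine (2.72 to 13.3), and the latter did not overlap those of the other organs. On the CPM scale, spleen WT 1 (median 18.9) lay below small intestine WT 1 (21.3), and the small intestine still did not overlap liver, kidney, and heart. On the TPM scale, kidney (1.12 to 1.54) and heart (0.669 to 1.51) overlapped each other. Every spleen library had all 39 members above 1 TPM, compared with 30 to 39 in the small intestine, 20 to 25 in the kidney, 15 to 25 in the heart, and 12 to 19 in the liver. By organ mean, the spleen was highest for 37 members, with the small intestine second for 31 of the 39, and the liver was lowest for 28. By mean CPM the spleen was highest for 35, the small intestine second for 30, and the liver lowest for only 16, with the heart lowest for 13 and the kidney for 9, so the order of the 3 lower organs depended on the scale. All 4 spleen libraries lay above all 16 others in TPM for 32 members (19.9% of the 23159 genes), and the exceptions were Cenpf, Spc24, Spc25, Plk1, Kif23, Pttg1, and Cdc20. In CPM this held for 16 members (12.3% of the genes). The ratio of the highest to the lowest organ mean had a median of 43.5 and ran from 3.63 for Spc24 to 131 for Mki67 in TPM, and in CPM it had a median of 23.3 and ran from 3.32 to 56.5 for the same genes.

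**Figure D1:**
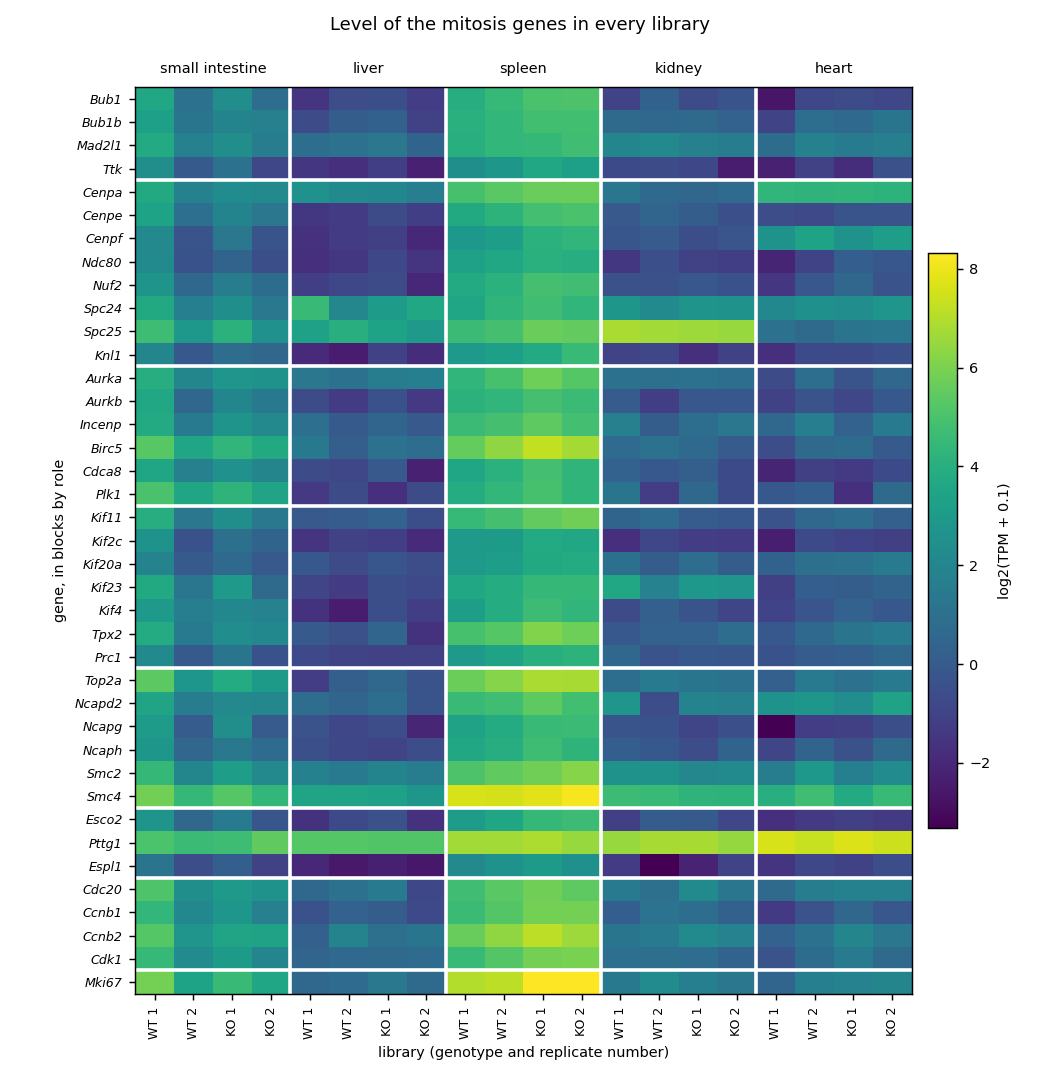
Level of the 39 genes (rows, in blocks by role) in the 20 libraries (columns, by organ), as log2(TPM + 0.1) on a color scale. The spleen columns are the brightest for 37 genes by organ mean TPM (35 by mean CPM); Spc25 is brightest in the kidney and Pttg1 in the heart.

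Against the mean of liver, kidney, and heart, 36 of the 39 members were called higher in the spleen, with a median log2 fold change of 4.13, where 26.4% of all 23159 genes tested were called higher and the median of all genes was 0.02. Leaving out any 1 library gave 36 or 37, where 41.4% to 45.2% of all genes were called in either direction. Mki67, a protein that coats mitotic chromosomes and the common marker of cycling cells, had the largest difference. Its TPM was 125 and 143 in spleen WT 1 and WT 2 and 320 and 316 in KO 1 and KO 2, while it was between 1.30 and 4.74 in the 12 libraries of liver, kidney, and heart. The groups were far apart, and the log2 fold change was 5.6 ± 0.33 (SE, adjusted p = 8.86e-09, edgeR). Birc5, the survivin subunit of the chromosomal passenger complex, followed with 5.25 ± 0.30 (adjusted p = 7.70e-09). Of the remaining roles, the spindle checkpoint genes (Bub1, Bub1b, Mad2l1, and Ttk) had log2 fold changes from 2.25 for Mad2l1 to 4.87 for Bub1, and all 4 were called. The 7 kinesins and spindle factors ran from 2.42 for Kif20a to 4.57 for Tpx2, the 6 condensin and topoisomerase genes from 2.53 for Ncapd2 to 4.96 for Top2a, and the 4 genes of entry into and exit from mitosis from 3.38 for Cdc20 to 4.70 for Ccnb1, all called. The 3 members that were not called were Spc25 (0.72 ± 0.28), Spc24 (0.68 ± 0.34), and Pttg1 (-0.53 ± 0.24). The first had an adjusted p of 0.0397 with a fold under 2.

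Against the same 3 organs, 29 members were called higher in the small intestine (background 26.4%) and 1, Pttg1, lower (background 17.6%). The median log2 fold change was 2.14. Plk1, the kinase that drives mitotic entry and spindle assembly, had the largest value at 4.44 ± 0.39 (adjusted p = 2.90e-07). Its TPM was 31.5, 11.7, 18.8, and 11.1 in small intestine WT 1, WT 2, KO 1, and KO 2 and 14.9, 20.6, 30.0, and 19.5 in the same order in the spleen. The 2 organs overlapped for this gene. Plk1 was the member with the lowest log2 fold change between spleen and small intestine (-0.31 ± 0.50, adjusted p = 0.643), and it turned to 0.01 without small intestine WT 1. The other end was held by Ndc80, a kinetochore subunit that grips microtubules, at 2.61 ± 0.55 (adjusted p = 0.00116). In that comparison, 37 members were called higher in the spleen (background 25.4%), with a median of 1.82. With WT libraries alone the median was 0.93 and 3 members were called (35.5% of all genes in either direction), and with the replicate number as a block 17 were called (39.4%). The small intestine WT libraries were far apart in these genes, and without small intestine WT 1 the median log2 fold change was 2.58.

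Several members had levels in kidney, heart, or liver that did not go with the rest. Spc25 is a subunit of the NDC80 complex at the kinetochore. Its TPM in WT 1, WT 2, KO 1, and KO 2 was 114, 105, 97.9, and 92.3 in the kidney. It was 24.3, 29.8, 51.1, and 45.8 in the spleen in the same order, while the heart had 1.94, 1.55, 2.13, and 2.26. All kidney libraries were above all spleen libraries. The log2 fold change of kidney over heart was 5.49 ± 0.43 and of liver over kidney -2.39 ± 0.37 (adjusted p = 2.12e-07 and 0.000128). Its partners in the complex were low in the kidney, where Ndc80 lay between 0.267 and 0.619 TPM and Spc24 between 4.58 and 7.07. Exons of Spc25 overlap no other gene of the annotation.

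Pttg1, securin, which holds separase inactive until anaphase, was the only member called lower in the small intestine than in liver, kidney, and heart. The TPM in WT 1, WT 2, KO 1, and KO 2 was 196, 162, 206, and 173 in the heart. In the same order, the spleen had 103, 104, 120, and 92, the kidney 93.1, 112, 110, and 90.3, the liver 37.6, 38.4, 35.3, and 35.4, and the small intestine 32.8, 24.6, 26, and 44.8. Heart libraries were above all others, spleen and kidney overlapped, and liver and small intestine overlapped, though in CPM the liver was just above (37.9 against 37.8). It was the most abundant of the 39 in every heart and liver library. Espl1, the separase that securin holds, had an organ mean from 0.0970 TPM in the liver to 6.02 in the spleen.

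In the heart, Cenpa and Cenpf stood out. Cenpa, the histone variant that marks centromeres, had a TPM of 20.1, 18.8, 19.6, and 18.4 in the 4 heart libraries (WT 1, WT 2, KO 1, KO 2), compared with 1.32 to 2.31 in the kidney and 30.6 to 51.6 in the spleen. The heart libraries lay between those of kidney and spleen without overlap, but in CPM they overlapped the spleen (36.5 to 56.9 against 45.1 to 82.0), and kidney over heart was -3.78 ± 0.32 (adjusted p = 4.73e-07). Cenpf, a large protein of the outer kinetochore, had 5.94, 10.8, 6.07, and 8.71 TPM in the heart and 0.15 to 0.357 in the liver. Liver over heart was -4.28 ± 0.51 (adjusted p = 8.33e-06), while heart WT 2 was above both spleen WT libraries (7.35 and 8.94), as all 4 heart libraries were in CPM. Kif23, the kinesin of the midzone and cytokinesis, was at 12.5, 3.51, 7.29, and 6.63 TPM in the kidney and at 0.324 to 0.594 in the liver, a log2 fold change of -3.12 ± 0.51 for liver over kidney (adjusted p = 0.000205). Spc24 varied within the liver, at 23.5, 4.13, 8.58, and 12 TPM, and its values there overlapped those of the spleen (11.4 to 26.8). By mean CPM the liver was its highest organ.

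**Figure D2:**
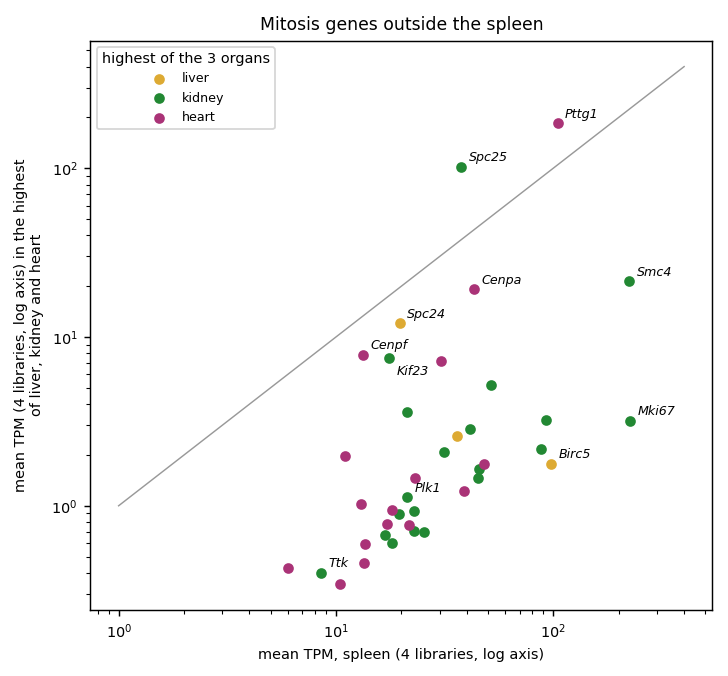
Mean TPM of each gene in the spleen (x axis) against its mean in whichever of liver, kidney, and heart was highest (y axis, point color gives the organ), 4 libraries each, both axes logarithmic; the line marks equal levels. Pttg1 and Spc25 lie above the line, and Cenpa, Spc24, Cenpf, and Kif23 lie nearer to it than most.

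Between the 3 organs of low level, few members were called and the medians were near 0. For liver over kidney, 4 were called higher and 2 lower (background 13.6% and 21.1%) with a median log2 fold change of -0.03. For liver over heart, 5 and 5 were called (19.8% and 24.8%) with a median of -0.15, and for kidney over heart 3 and 4 (19.9% and 18.1%) with a median of -0.11. All 6 shares of the members were below the background. The organ contrasts share the liver, kidney, and heart libraries.

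KO was compared with WT within each organ, the comparison for which the libraries were made. In the spleen, all 39 members had a positive log2 fold change, with a median of 0.95 beside 0.01 for all 18834 genes tested. Mki67 and Cenpf, 2 of the 39, were called higher, where 0.218% of all genes were called higher. At an unadjusted p under 0.05, 35 of the 39 were higher (background 4.32%), and in 36 both KO libraries were above both WT libraries (background 14.3%). DESeq2 called 12 members, all higher, where it called 1.16% of all genes in either direction. In a fit without 1 spleen library, the spread comes only from the genotype that keeps 2. The count depended on single libraries, being 2 without WT 1 (1.86% of all genes called in that fit), 18 without WT 2 (1.35%), and 0 without KO 1 (0.105%) or KO 2 (0%), while the median stayed between 0.70 and 1.21 and all 39 stayed positive except Pttg1 without KO 1.

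Mki67 (ENSMUSG00000031004, chr7:135689784-135716361, minus strand) had a CPM of 316 in WT 1, 369 in WT 2, 893 in KO 1, and 862 in KO 2. Both KO libraries were more than 2 times either WT library. The log2 fold change was 1.40 ± 0.17 (SE, adjusted p = 0.0711, edgeR). Cenpf (ENSMUSG00000026605, chr1:189640606-189688086, minus strand) had a CPM of 28.6, 35.4, 72.8, and 83.8 in the same order. The KO libraries were again more than 2 times the higher WT library, and the log2 fold change was 1.34 ± 0.19 (adjusted p = 0.0969). Over the 12 alternatives run, the adjusted p of Mki67 ranged from 3.47e-11 to 1 and that of Cenpf from 1.26e-09 to 1, and each remained called in 8. Neither was called in 1 fit of all 20 libraries, which shares 1 spread over the organs.

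The remaining roles are given by the member with the highest TPM over all libraries and by the range of the role. Apart from Cenpf, none of the members from here on was called in the spleen. Of the 4 checkpoint genes, which delay anaphase until all chromosomes are attached, Mad2l1 had a CPM of 32.6 and 44.2 in WT 1 and WT 2 and 50.5 and 61.1 in KO 1 and KO 2. Its groups did not overlap, and its log2 fold change of 0.58 ± 0.22 was the lowest of the 4, up to 0.96 for Bub1. Of the 8 kinetochore and centromere genes, Spc25 had 19.5 and 24.4 in WT and 45.2 and 39.6 in KO. The groups were apart, with a log2 fold change of 0.99 ± 0.19 (adjusted p = 0.166), in a role whose values ran from 0.65 for Cenpa to the 1.34 of Cenpf. Of the 6 genes of the passenger complex and mitotic kinases, Birc5 had 40.9 and 73.2 in WT and 143 and 98.3 in KO. Its 2 libraries of each genotype differed more than those of Spc25, but the genotypes did not overlap (1.11 ± 0.34, adjusted p = 0.675). Plk1 in the same role had 8.25 and 11.6 in WT and 18.3 and 11.6 in KO. The groups of this gene overlapped.

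Of the 7 kinesins and spindle factors, Tpx2, which activates the kinase Aurka on the spindle, had 35.8 and 45.4 in WT and 90.6 and 67.3 in KO. The groups did not overlap, and the values of the role ran from 0.81 for Kif23 to 1.13 for Kif11, the motor that pushes spindle poles apart. Of the 6 condensin and topoisomerase genes, which compact and untangle chromosomes, the condensin subunit Smc4 had 261 and 256 in WT and 320 and 401 in KO. It was higher in both KO libraries, with the lowest log2 fold change of its role at 0.53 ± 0.18. Ncapg had the highest at 1.08 ± 0.22. Of the 4 genes of entry and exit, Ccnb2, a B-type cyclin that activates Cdk1, had 18.9 and 32.4 in WT and 60.7 and 40.1 in KO. The groups did not overlap (1.01 ± 0.33, adjusted p = 0.706), and Cdk1 itself was at 1.15 ± 0.24.

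The 3 genes of cohesion and its release had the following values. Esco2, which acetylates cohesin in S phase, had a CPM of 14.1 and 19.7 in WT and 40.2 and 45.4 in KO. Both KO libraries were more than 2 times the higher WT library, and the log2 fold change of 1.38 ± 0.22 was the second largest of the 39, with an adjusted p of 0.120 that did not pass. Espl1 had 9.50 and 13.7 in WT and 19.3 and 13.5 in KO, and Pttg1 51.9 and 53.3 in WT and 66.5 and 49.9 in KO. The groups of both overlapped. Pttg1, at 0.19 ± 0.17, was the lowest of the 39, and it was -0.03 without KO 1.

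**Figure D3:**
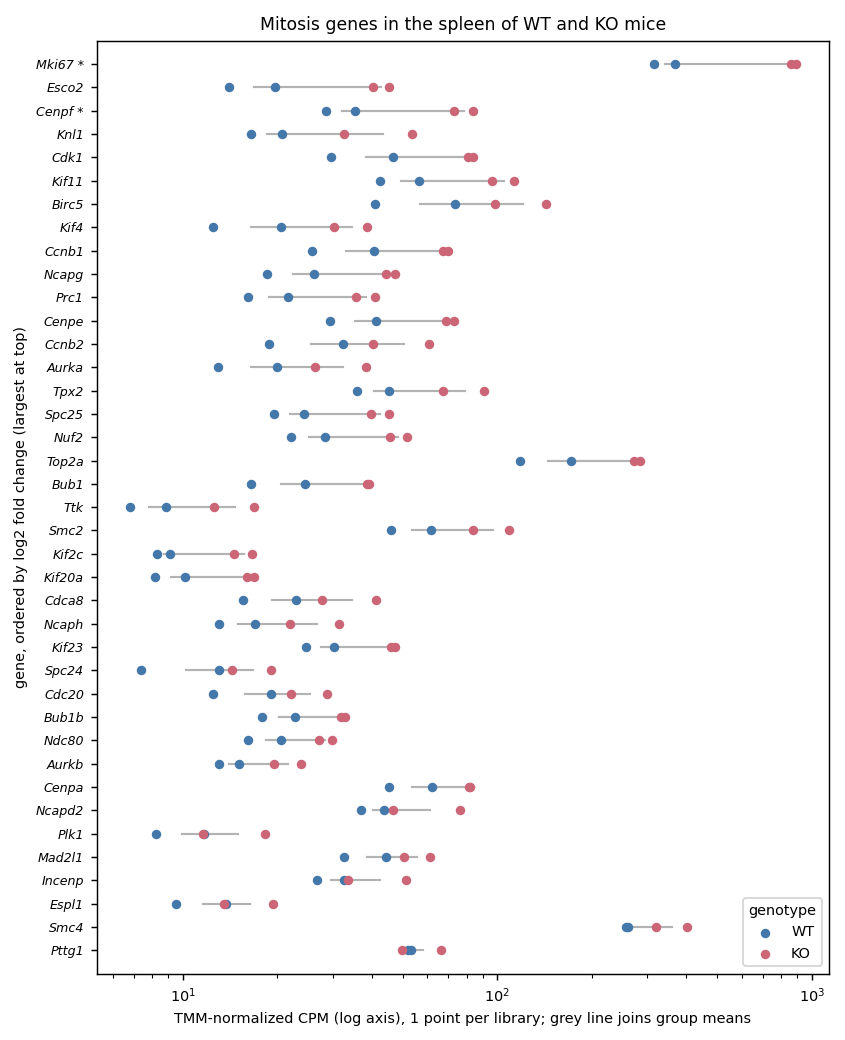
CPM (log axis) of the 39 genes in the 4 spleen libraries, 1 point per library (blue WT, red KO), with a grey line between group means and genes ordered by log2 fold change; an asterisk marks the 2 called genes. The KO points lie to the right of the WT points in 36 genes and overlap in Plk1, Espl1, and Pttg1.

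Other genes of the cycle were set beside the members in the spleen. Of 84 other mitosis genes, 81 had a positive log2 fold change (median 0.69), 49 had p under 0.05 and were higher, and none was called. Stag2, a cohesin subunit and the most abundant of them, had 0.32 ± 0.26, Cdkn3 was highest at 1.41 ± 0.27, and Pimreg lowest at -0.18 ± 0.44. Of 30 DNA replication genes, 29 were positive (median 0.68), 17 had p under 0.05, and none was called. Pcna, the sliding clamp and the most abundant, had 0.76 ± 0.21, Tyms, which makes thymidylate, 1.19 ± 0.22, and Pold1 -0.02 ± 0.23. Of 21 transcription factors of cell cycle genes, 19 were positive (median 0.43) and 1 was called, Tfdp2, the dimer partner of E2F proteins and the most abundant of the list, at 1.14 ± 0.17 (adjusted p = 0.0969). E2f8 was highest at 1.39 ± 0.28 and Rbl2 lowest at -0.11 ± 0.16. Mybl2 had 1.05 ± 0.31, E2f7 0.84 ± 0.38, E2f4 0.63 ± 0.21, Foxm1 0.59 ± 0.20, and E2f1 0.56 ± 0.26, each higher in both KO libraries. The 7 CDK inhibitors, which stop the cycle, had a median of 0.16 with none called, from -0.27 ± 0.40 for Cdkn1c to 0.84 ± 0.17 for Cdkn2c. Cdkn1b, the most abundant, had 0.10 ± 0.16, and Cdkn1a 0.16 ± 0.35 with overlapping groups.

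Markers of blood and other cell types were read in the same spleen libraries, and only the erythroid list held calls. The 24 erythroid genes measured, led by Hbb-bs, summed to a CPM of 13257 and 17843 in WT 1 and WT 2 and 30614 and 33792 in KO 1 and KO 2. All 24 were positive (median log2 fold change 1.35) and 8 were called, with Hemgn highest at 1.85 ± 0.22 and Hba-a1 lowest at 0.72 ± 0.27. The 5 granulocyte precursor genes, led by Prtn3, summed to 23.8 and 57.5 in WT and 17.4 and 25 in KO. The 8 B cell genes summed to 3676 and 3004 in WT and 2981 and 2569 in KO, and 7 of the 8 had a negative log2 fold change with none called. The 7 germinal center B cell genes, led by Bcl6, summed to 67.5 and 68.9 in WT 1 and WT 2 and 64.0 and 92.3 in KO 1 and KO 2, with 6 of 7 positive (median 0.57) and none called. The 7 plasma cell genes, led by Jchain, summed to 946 and 942 and then 1170 and 1848 in the same order, with 6 of 7 positive (median 0.21) and none called. The 10 hepatocyte genes, high in WT 2 alone and lowest in WT 1, had a median of -3.37 with none called. None of the genes in these 6 lists was at 0 in all 4 spleen libraries. The part of these cells in the values of the mitosis genes was not tested. Without WT 2, the library with the hepatocyte genes, the median of the 39 members was 1.21.

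In the other organs no member was called by edgeR or DESeq2, and the directions differed. In the small intestine, 38 of the 39 log2 fold changes were negative, with a median of -1.0 (0.00 for all genes), from -1.59 ± 0.95 for Ndc80 to 0.26 ± 0.46 for Pttg1. None of the 17680 genes tested was called lower (0%), and none of the members had p under 0.05 (background 0.617% lower). This fit had no term for the replicate number, so differences between libraries numbered 1 and 2 counted as spread. With the number as a block, 0 members and 0% of all genes were called. Groups overlapped for all 39 members, while among the 17680 genes 1684 were lower and 2756 higher in KO without overlap. The median was 0.29 without WT 1, so its sign rested on that library. Ndc80 had a CPM of 10.5 in WT 1, 1.91 in WT 2, 2.68 in KO 1, and 1.63 in KO 2, and only WT 1 was high. The 6 smooth muscle genes, led by Des, had a summed CPM of 279, 441, 2450, and 1351 in the same order, with a median log2 fold change of 2.27, all 6 higher in both KO libraries and none called. The 8 cardiomyocyte genes summed to 10.8, 21.1, 428, and 30.7. The 7 of them tested were higher in KO (median 4.29, 3 with p under 0.05), with none called. All 8 B cell genes (median -3.01) and all 8 T cell genes (median -0.88) were lower in KO, 0 of them with p under 0.05. The 7 crypt stem cell genes summed to 350, 215, 156, and 188, lower in both KO libraries. So were the 7 goblet cell genes, led by Zg16, at 16877, 13553, 12157.5, and 10807. Their part in the values of the mitosis genes was not tested.

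In the liver, 25 members were positive (median 0.10), 6 were higher without overlap (background 16.2%), and 1, Kif4, had p under 0.05 (background 2.74%, with 0.0509% called higher). Kif4, a chromosome kinesin, had a CPM of 0.632 and 0.316 in WT and 2.1 and 1.25 in KO. The groups were apart, with a log2 fold change of 1.80 ± 0.65 (adjusted p = 0.983), at few counts and with 832 exon bases shared with Pdzd11. The lowest was Ncapg at -0.49 ± 0.65, which was 0.21 without KO 2. The liver median was -0.38 without KO 1 and 0.52 without KO 2, and 1 member was called higher without WT 1 beside 1.25% of all genes. The 8 cardiomyocyte genes summed to a CPM of 28.3, 5.26, 1.62, and 1.57 in liver WT 1, WT 2, KO 1, and KO 2, and the 5 tested were lower in KO with p under 0.05, none called. Their part in the values of the mitosis genes was not tested.

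In the kidney, 30 members were negative (median -0.28, -0.03 for all genes), 5 were lower without overlap (background 10.3%), and none had p under 0.05 (background 0.234% lower, 0% called lower). The range was from -0.98 ± 0.98 for Ttk, a checkpoint kinase, to 1.02 ± 1.53 for Espl1. The latter had a CPM of 0.767 in WT 1, 0 in WT 2, 0.356 in KO 1, and 1.29 in KO 2. Its groups overlapped. The kidney median was -0.55 without WT 1, when 2 members were called higher and 2 lower beside 16.1% of all genes, and 0.15 without WT 2. Of the 36 members with both KO libraries above WT in the spleen, 5 had both below WT in the kidney (13.9%, with 9.88% of all genes so separated in the spleen) and 1 in the liver (2.78%, with 14.8% of all genes).

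In the heart, 32 members were positive (median 0.45, -0.01 for all genes), 16 were higher without overlap (background 8.89%), and 2 had p under 0.05 (background 0.186% higher, 0% called higher). These were Ndc80, the highest at 1.77 ± 0.70, and Tpx2 at 1.08 ± 0.44 (adjusted p = 1 for both). Ndc80 had a CPM of 0.369 and 0.997 in WT and 3.30 and 1.72 in KO. The groups did not overlap, though WT 1 had under 10 counts for 8 of the 39 members and KO 1 for 3. Heart libraries differed in depth by number, with total counts of 17959542 in WT 1 and 15897446 in KO 1 but 36090637 in WT 2 and 41763236 in KO 2. Of 80 other mitosis genes tested, 45 were positive (median 0.05), and of 30 DNA replication genes 8 were positive (median -0.10), with none called. Among the members, Smc2 was lowest at -0.30 ± 0.39, and their median was 0.95 without WT 2, when Smc2 was 0.26. In that library the B cell genes summed to a CPM of 42.1, against 11.4 in WT 1, 10.6 in KO 1, and 8.92 in KO 2, and the T cell genes, led by Lck, to 18 against 4.37, 2.32, and 2.55. All 8 B cell genes (median -2.68, 4 with p under 0.05) and all 6 T cell genes tested (median -2.25, 2 with p under 0.05) were lower in KO, with none called. Their part in the values of the mitosis genes was not tested.

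**Figure D4:**
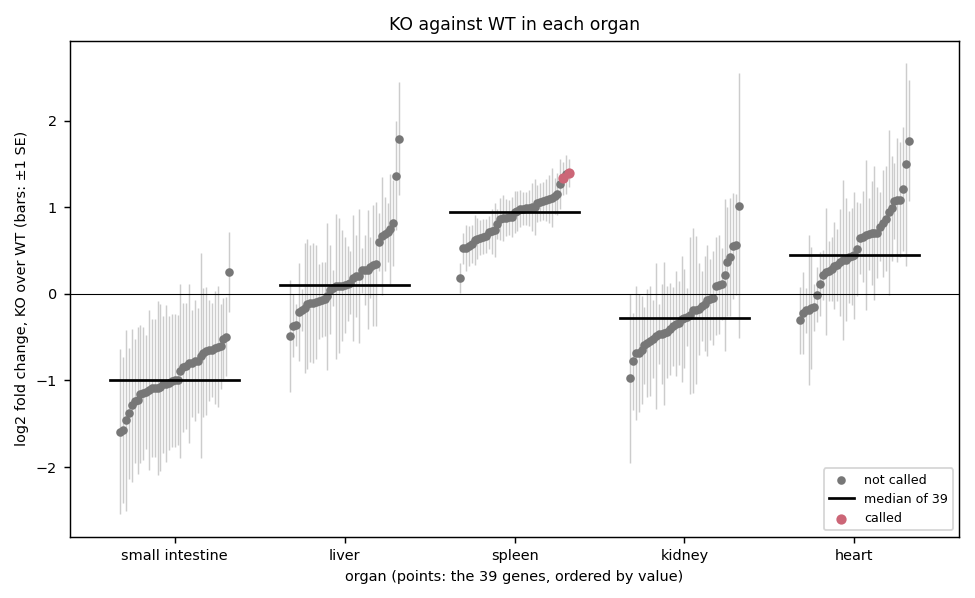
Log2 fold change of KO over WT for the 39 genes in each organ, ordered by value within the organ, with ±1 SE (2 libraries per genotype); red points were called and black lines are medians. All spleen points are above 0 and 2 are red, and the small intestine points other than Pttg1 are below 0 with none red.

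Whether the KO effect in the spleen differed from the mean of the other 4 organs was tested in 1 fit of all 20 libraries. The difference was positive for all 39 members, with a median of 0.98 (-0.02 for all 23159 genes). None was called by DESeq2 (0.013% of all genes called in either direction) or by edgeR (0% called higher). In this test 2 members had p under 0.05 (background 1.06% higher), Cenpf at 1.60 ± 0.71 and Cenpa at 0.98 ± 0.45. Pttg1 was lowest at 0.06 ± 0.45 and negative without small intestine KO 1, spleen KO 1, or kidney WT 2. The median was 0.65 without small intestine WT 1.

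The WT libraries of the small intestine were far apart. The summed CPM of the 39 members was 1225 in WT 1, 358 in WT 2, 533 in KO 1, and 376 in KO 2. WT 1 was the highest library for 38 members (24.9% of the 17680 genes tested), and for 31 both libraries numbered 1 were above both numbered 2 (29.3% of the genes). The labels name no part of the gut, but 8 genes of the proximal intestine, led by Fabp1, summed to 204, 13166, 251, and 13988, and 7 of the distal intestine, led by Fabp6, to 11235, 437, 13102, and 571, in the order WT 1, WT 2, KO 1, KO 2. Number 2 was therefore tested against number 1 with genotype as a term.

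All members but Pttg1 were lower in the libraries numbered 2, with a median log2 fold change of -1.27 (-0.03 for all 17680 genes). Of these, 3 were called lower (background 3.11%), and 18 had p under 0.05 and were lower (background 9.51%). Kif23 had a CPM of 37.5 in WT 1, 20.8 in KO 1, 8.08 in WT 2, and 5.08 in KO 2. The numbers did not overlap, and it fell by 2.1 ± 0.27 on the log2 scale (adjusted p = 0.0409). Ncapg, a condensin subunit, had 21.3 and 12.9 in WT 1 and KO 1 and 3.04 and 2.72 in WT 2 and KO 2. It fell by 2.50 ± 0.38 (adjusted p = 0.0575), the largest difference, with 944 exon bases shared with Lcorl. Spc25 had 29.1 and 19.4 compared with 10.7 and 7.93, and fell by 1.34 ± 0.27 (adjusted p = 0.0899). Mki67 had 206 and 83.0 compared with 48.0 and 49.7, with -1.39 ± 0.41, and was not called (adjusted p = 0.169). Pttg1 had 23.1 and 18 compared with 22.2 and 37.8, the only positive value at 0.54 ± 0.37. Leaving out 1 library leaves too few to test the number with genotype as a term, so the calls of those fits are not read as results. The median of the members was -0.47 without WT 1 and -1.96 without KO 1.

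Within a number, the genotypes did not differ alike. KO 1 was below WT 1 for all 39 members, with a median log2 ratio of -1.25 on the scale of CPM + 0.5, while KO 2 was below WT 2 for 18 and above for 21, with a median of 0.05. Each of these compares single libraries and has no replicate. The same counts were not taken over all genes, so it is not known whether they are particular to the members.

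Other genes were read across the numbers. Among all 17680 genes tested, 800 were called higher and 550 lower in the libraries numbered 2. Of 84 other mitosis genes, 75 were lower in the libraries numbered 2 (median -0.99) and 1 was called, and of 29 replication genes tested 23 were lower (median -0.64), with Lig1 called lower at -1.79 ± 0.31. Among transcription factors, 15 of 21 were lower (median -0.31) and E2f2 was called at -2.33 ± 0.29. Of 7 Paneth cell genes, made by the granular cells of the crypt base and led by Lyz1, 7 were lower and 5 were called. They summed to a CPM of 4707, 349, 2775, and 713 in WT 1, WT 2, KO 1, and KO 2. The 7 crypt stem cell genes, led by Smoc2, summed to 350, 215, 156, and 188, with 5 of 7 lower and 1 called in each direction. The B cell genes summed to 398, 9.13, 2.06, and 61.2, so that WT 1, the highest in mitosis genes, was also the highest in B cell genes, of which 6 of 8 were lower with none called.

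Other cell type lists were read across the numbers too. The enterocyte genes summed to a CPM of 15580, 33600.5, 25412, and 35109 in the order WT 1, WT 2, KO 1, KO 2, with 7 of 8 higher in the libraries numbered 2 and 2 called higher. Both libraries numbered 1 were below both numbered 2, and WT 1, the highest in mitosis genes, was the lowest in enterocyte genes. The plasma cell genes summed to 994, 2379, 466, and 2037, with 5 of 7 higher and 1 called in each direction. The T cell genes summed to 149, 251, 21.6, and 191, with 8 of 8 higher and none called. The sums of both lists were likewise lower in the libraries numbered 1. The germinal center B cell genes summed to 81.0, 20.5, 139, and 41.2, and the 5 tested were all lower with none called. The erythroid genes summed to 785, 276, 1092, and 407, with 7 of 13 tested lower, 2 called higher, and 1 called lower. The hepatocyte genes summed to 4250, 9188, 6939.5, and 14569, with 5 of 9 tested higher and 1 called lower. Of the cell type lists given for the 2 numbers, the erythroid list alone held a gene, Slc4a1, at 0 in all 4 libraries. The part of these cells in the level of the mitosis genes was not tested.

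**Figure D5:**
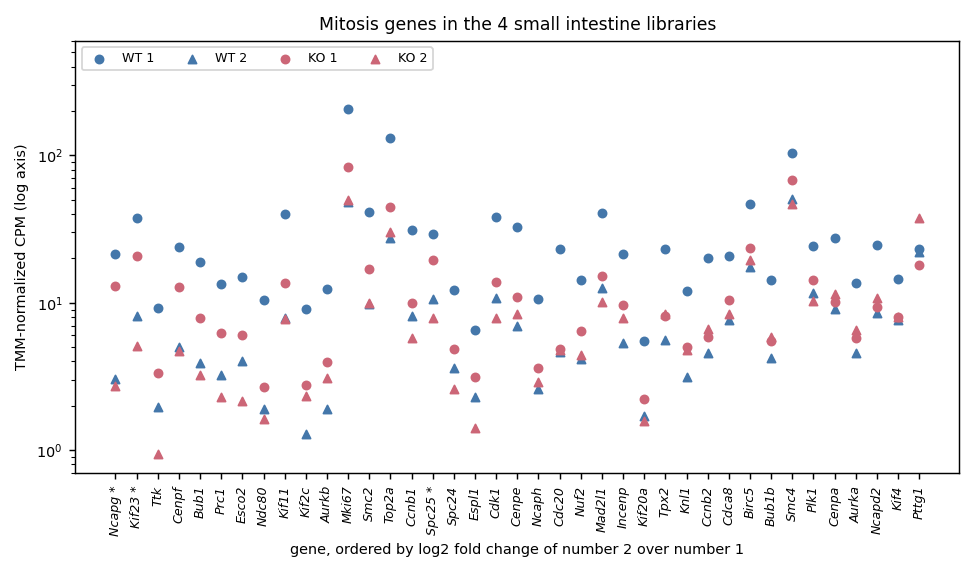
CPM (log axis) of the 39 genes in the 4 small intestine libraries (blue WT, red KO; circles number 1, triangles number 2), ordered by the log2 fold change of number 2 over number 1; asterisks mark the 3 called genes. The blue circle of WT 1 is the highest point for all genes but Pttg1.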

How the data were processed

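The authors built stranded mRNA libraries, trimmed reads with cutadapt, aligned them with HISAT2 2.1.0 to mm10, and counted them over Ensembl exons with featureCounts 2.0.1. They deposited raw counts per gene, without normalization, beside each gene's summed exon length, a value of the annotation. The command stored with the counts lacks the strand and pair options given in the methods. Without strand, reads of overlapping genes cannot be told apart, and 9 members share exon bases with another gene.

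From the counts, edgeR 4.0.16 (R 4.3.3) gave TMM factors, the filterByExpr filter, and quasi-likelihood tests, per organ for KO against WT and in 1 fit of the 20 libraries between organs. SE is the log2 fold change over the square root of F. DESeq2 1.42.0, other size factors, filters, thresholds, a replicate block, and leaving out each library were alternatives. The fits were tested on simulated counts. Promoters are from RefSeq (GRCm38.p6). Members, lists, and tests were chosen with earlier results of these data known. Every member may be named, with values by library for the most abundant member of each role, called members, and the highest and lowest; of other lists, the most abundant, highest, and lowest genes and set transcription factors are named. Nsun6 is named as the targeted gene, and Fabp6, Pdx1, and Sis were chosen after their values were seen. Some genes of the other lists that this rule would name are not reported here.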

Additional observations from a re-analysis of the deposited data

Results flagged for a closer look

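Of the 36 members whose KO libraries were all above WT in the spleen, 5 had KO libraries all below WT in the kidney (Cenpa, Kif11, Prc1, Smc2, and Smc4) and 1 in the liver (Cenpa). Among all genes so separated in the spleen, the share was 9.88% in the kidney, where the members had 13.9%, and 14.8% in the liver, where the members had 2.78%. None of these members was called in any of the 3 organs. The difference between these pairs of organs was not tested gene by gene.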

How the results depend on the processing

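With 2 libraries a group, single libraries moved most results. When 1 was left out of KO against WT, the spread came only from the genotype that kept 2. In the spleen, KO against WT called 14 members with no filter on low counts, where 1.04% of all genes were called in either direction. It called 4 with at least 10 counts in every library (0.628%) and 12 with DESeq2 (1.16%). It called 0 at an adjusted p under 0.05 or in 1 fit of the 20 libraries (0% for both). Leaving out 1 library gave 0 to 18 calls and a median log2 fold change of 0.70 to 1.21. The same step gave 0 to 1 calls and a median of -0.38 to 0.52 in the liver, 0 to 4 and -0.55 to 0.15 in the kidney, a median of 0.30 to 0.95 in the heart, and -1.63 to 0.29 in the small intestine. It gave medians of 1.54 to 2.55 for small intestine against liver, kidney, and heart, 1.52 to 2.58 for spleen against small intestine, -0.32 to 0.23 for liver against kidney, -0.25 to 0.29 for liver against heart, and -0.25 to 0.24 for kidney against heart. Small intestine libraries numbered 2 against 1 gave 13 calls with no filter, 15 with DESeq2, and 6 with the number nested in organ. Leaving out 1 library there gave a median of -1.96 to -0.47. Too few libraries then remain to test the number with genotype as a term. The 0 to 34 calls of those fits are therefore not read as results. With WT libraries only, the median was 3.73 for spleen and 2.79 for small intestine against the other 3 organs. Spleen against small intestine then gave 3 calls and 0.93, where 35.5% of all genes were called in either direction. Liver against kidney gave 3 calls (24.6%), liver against heart 6 calls (35.7%) and 0.17, and kidney against heart a median of 0.26. The causes of these differences were not tested.

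Some single members changed sign when 1 library was left out, over ranges of log2 fold changes that include both signs. These were Pttg1 (-0.45 to 0.72) and Ndc80 (-2.37 to 0.11) in the small intestine, Ncapg in the liver (-1.80 to 0.21), Pttg1 in the spleen (-0.031 to 0.36), Espl1 in the kidney (-0.14 to 7.46), Smc2 in the heart (-0.67 to 0.26), and Plk1 for spleen against small intestine (-0.50 to 0.012). The interaction of Pttg1 ranged from -0.16 to 0.25 and was -0.05 without small intestine KO 1, -0.16 without spleen KO 1, and -0.07 without kidney WT 2.

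Genotypes share the replicate numbers 1 and 2, but the labels do not say that a number marks an animal or a day. Deviations of same-numbered libraries from their group means correlated at 0.568 in the small intestine, 0.363 in the heart, 0.123 in the kidney, 0.0383 in the liver, and 0.00503 in the spleen. With the replicate number as a block, 17 members were called for spleen against small intestine, and no other count of calls moved by more than 1.5 times.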
